A study of Mus musculus with 8 samples.

Results

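Rgs5-low arterial smooth muscle cells of the mouse cortex were picked out of 7 distinct single-cell libraries by 4 cut-offs on scaled counts (unique molecular identifiers, UMIs, per 10000 UMIs of a cell). A member had a sum of at least 40 over Acta2, Tagln, Myh11 and Myl9, the actin, myosin and calponin-family genes of the contractile apparatus. It had under 20 of Rgs5, a regulator of G-protein signalling that is abundant in pericytes, under 20 over the endothelial genes Cldn5, Flt1 and Pecam1, and under 20 over the microglial genes C1qa, C1qb and Ctss. This gave 948 cells of the 50254 that showed 500 or more genes and less than 15% of UMIs from mitochondria, out of 56961 deposited barcodes. All the values behind these cut-offs are therefore a description of how the cells were chosen and not a finding.

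The libraries came from the cortex of mice at 8 weeks of age, perfused before dissection. Lama4-/- mice lack laminin alpha 4 in every cell. Tek-Cre:Lama5-/- mice lose laminin alpha 5 in cells in which the Tek promoter drove Cre, mainly endothelium and blood cells, so the smooth muscle cells themselves are not the target of that deletion. Each genotype had its own wild-type (WT) mice, and the brains of 3 mice were pooled in each of the 4 groups. A group has 2 libraries, but the matrices of the 2 Lama4-/- samples are identical and were counted as 1. Spread between libraries of a group therefore leaves out the spread between mice, and a p-value here compares pools.

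Smooth muscle cells wrap arteries and arterioles, set their diameter by actomyosin contraction under the control of calcium, and lay down a basement membrane of laminin, collagen IV and perlecan jointly with the endothelium. A laminin is a trimer of an alpha, a beta and a gamma chain. Along the arterial tree of the brain, elastin-rich arteries give way to arterioles and then to capillaries, where pericytes rich in Rgs5 replace the smooth muscle.

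Counts of members were 166 and 189 in the WT libraries of the Lama4 experiment, 167 in the Lama4-/- library, 85 and 94 in the Lama5 WT libraries, with 127 and 120 for Tek-Cre:Lama5-/-. Totals per library ran from 35479306 to 48314458 UMIs, and the members contributed between 535498 and 1756119 of them. The median depth of a member was 9085.5, 9333 and 8128 UMIs in the libraries of the Lama4 experiment, 6237 and 5693 in the Lama5 WT libraries, with 4679 and 4457.5 for Tek-Cre:Lama5-/-. At most 1 member barcode was shared by a pair of libraries.

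The smooth muscle label held when checked with 4 marker genes that the cut-offs did not use, although they come from the same cells. Of the 948 members, 909 (95.9%) carried at least 3 of Pln (phospholamban, the brake on the calcium pump), Lmod1 (an actin nucleator), Mustn1 and Des (desmin, the intermediate filament of muscle), and 9 carried none. Each of the 4 was detected in 82.5% or more of the members of each library. Among other kept cells with under 20 of Rgs5, each was detected in at most 3.01%. That set leaves out the smooth muscle cells with 20 or more of Rgs5 (Rgs5-high), which carried these genes too. Their median level in the members was at most 1.84-fold that in the Rgs5-high cells (Pln). The 4 markers thus speak for smooth muscle and do not set the members apart from Rgs5-high smooth muscle cells. Markers of perivascular macrophages, neutrophils, T cells and B cells reached 20 per 10000 in 0 members. Pericyte markers did so in 60, astrocyte markers in 22 and oligodendrocyte markers in 14, of which 5 and 6 were in the Tek-Cre:Lama5-/- libraries.

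The cut on the contractile sum fell in a gap, with 8 members between 40 and 50 and 18 cells between 30 and 40. The cut on Rgs5 did not: 150 members lay between 15 and 20 and 120 excluded smooth muscle cells between 20 and 25. The Rgs5-low class is thus the low end of a continuous range, as the plot of contractile sum against Rgs5 shows. In 164 members (17.3%) Rgs5 had no UMI.

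**Figure D1:**
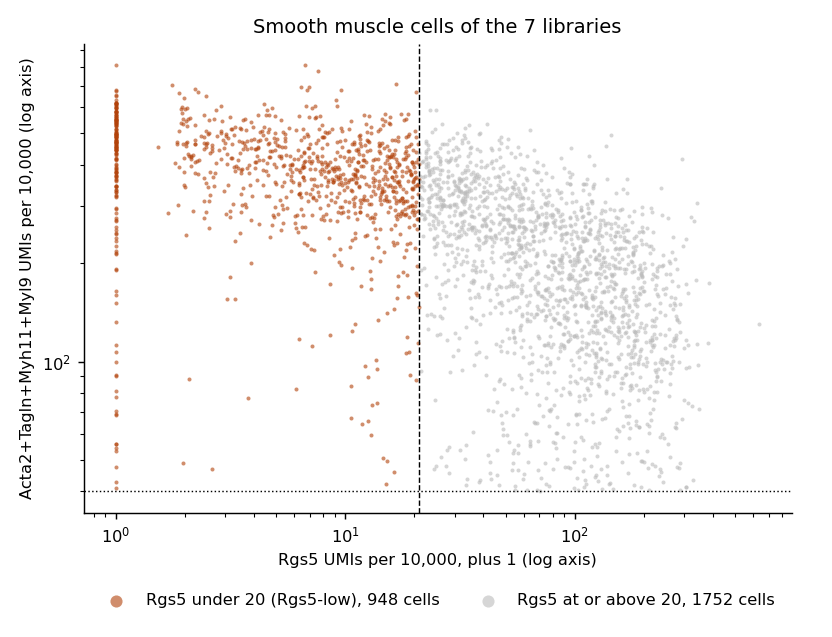
Each point is 1 smooth muscle cell of the 7 libraries, placed by its Rgs5 UMIs per 10000 (plus 1, log axis) and its summed Acta2, Tagln, Myh11 and Myl9 UMIs per 10000 (log axis), with the 948 Rgs5-low cells in colour and the 1752 Rgs5-high cells in grey. The dashed line is the Rgs5 cut and the dotted line the contractile cut, and no gap separates the classes along Rgs5.

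The genes that set these cells apart from the rest of the cortex were those of contractile muscle. Among genes at 100 CPM (UMIs per 1000000) or more in every library, Cnn1 (calponin, an actin-binding brake on myosin) had the highest ratio to all other kept cells, with a median of 134-fold over the 7 libraries. Sh3bgr followed at 70.7-fold, Susd5 at 52.8-fold, Pln at 42.1-fold, Crispld2 at 41.2-fold, Tpm2 (tropomyosin) at 37.0-fold and Nexn (nexilin) at 36.9-fold. Also among the 20 highest were Tgfb3 (34.4-fold), Myocd (myocardin, the coactivator of serum response factor in smooth muscle, 29.9-fold) and Myom1 (myomesin, 25.2-fold). These ratios describe cells chosen on contractile genes.

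Serum response factor binds the CArG box, a 10-base element rich in A and T. The stretch from 250 bases before to 50 bases after the start of each gene was taken from RefSeq (GRCm38.p6). An exact CArG box on either strand lay in the window of 488 of 27025 genes (1.81%). Of the 20 genes with the highest ratio to other cells, 13 had a window, and 3 of these held the box: Myl9, Fbxl22 (an F-box protein of muscle) and Myom1. Their windows are shown because they are the leading genes of this class with such a match. They lie at chr2:156775214-156775513 (plus strand), chr9:66514544-66514843 (minus strand) and chr17:71019307-71019606 (plus strand), and the capitals mark the CArG box, which begins 161, 222 and 99 bases before the start.
Myl9 promoter: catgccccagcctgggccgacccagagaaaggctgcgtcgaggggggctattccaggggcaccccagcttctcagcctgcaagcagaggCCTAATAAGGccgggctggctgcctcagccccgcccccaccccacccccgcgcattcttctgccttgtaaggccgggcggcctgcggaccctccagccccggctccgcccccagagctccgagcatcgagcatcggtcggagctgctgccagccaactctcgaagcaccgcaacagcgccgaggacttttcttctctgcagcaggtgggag
Fbxl22 promoter: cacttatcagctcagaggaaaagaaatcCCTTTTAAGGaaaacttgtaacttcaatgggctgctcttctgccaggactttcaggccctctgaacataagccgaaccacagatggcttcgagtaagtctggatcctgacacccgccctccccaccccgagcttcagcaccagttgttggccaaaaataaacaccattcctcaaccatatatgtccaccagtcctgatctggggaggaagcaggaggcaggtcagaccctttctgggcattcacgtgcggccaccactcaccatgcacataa
Myom1 promoter: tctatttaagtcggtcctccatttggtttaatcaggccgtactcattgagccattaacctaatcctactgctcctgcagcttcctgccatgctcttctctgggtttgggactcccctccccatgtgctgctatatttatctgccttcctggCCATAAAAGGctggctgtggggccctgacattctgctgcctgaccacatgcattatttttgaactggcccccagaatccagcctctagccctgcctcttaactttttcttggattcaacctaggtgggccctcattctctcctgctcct
The windows of Acta2 and Cnn1 hold no exact match of these letters. A match is a description of sequence only, and no binding was measured.

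Compared with Rgs5-high smooth muscle cells of the same libraries, the Rgs5-low cells held more message of most contractile genes. Of the 26 contractile genes listed, 23 were higher in 7 of 7 libraries and 2 (Cald1 and Map3k7cl) lower in 7 of 7, with a median ratio of 1.55 over the list. Over all 6170 genes at 20 CPM or more in either class, 8.78% were higher and 18.4% lower in 7 of 7, and the median ratio was 0.92. The list holds the 4 genes of the contractile sum, and without them 19 of 22 were higher in 7 of 7. The classes were cut on Rgs5 and sit on a continuous range, so this is a description with no test. Cnn1 stood at 509 and 404 CPM in the WT libraries of the Lama4 experiment, 485 in Lama4-/-, 312 and 267 in the Lama5 WT libraries, with 307 and 268 for Tek-Cre:Lama5-/-. Its ratio to the Rgs5-high cells was 11.9-fold (range over libraries 8.79 to 50.3). Csrp1, an actin-bundling LIM protein, was 2.63-fold higher, Smtn (smoothelin) 2.35-fold, and Ppp1r14a, an inhibitor of myosin phosphatase, 1.83-fold.

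Calcium handling split in opposite directions. Of 23 listed genes at 20 CPM or more in either class, 5 were higher and 7 lower in 7 of 7 libraries. Over all genes at that level, 8.78% were higher and 18.4% lower. Ryr2, a calcium release channel, was 5.92-fold higher (3.59 to 6.50), and Kcnma1, the pore of the large-conductance potassium channel that relaxes arteries, 4.81-fold higher (2.95 to 7.41). Casq2, the calcium store protein that partners ryanodine receptors, was at 0.11 of the Rgs5-high level (0.085 to 0.13). The chloride channel Ano1 was at 0.29. Kcnj8 and Abcc9, which form the ATP-sensitive potassium channel of pericytes, were near 0 in the members, with a median of 1.48 and 0.66 CPM.

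Of 15 receptors and relay genes for vasoactive signals at that level, 8 were lower in 7 of 7 libraries and 2 higher, beside the 18.4% and 8.78% of all genes. The 8 included the endothelin receptor Ednra (0.58), the nitric oxide receptor subunits Gucy1a1 (0.71) and Gucy1b1 (0.53), and Rgs4 (0.62). The 2 that were higher were Ramp1, a subunit of the receptor for the vasodilator CGRP (3.09-fold), and P2rx1, an ATP-gated channel (1.56-fold). In the Notch pathway, which specifies arterial smooth muscle, 4 of 9 genes were lower in 7 of 7 libraries, namely Notch3 (0.49), Notch1 (0.59), Nrip2 (0.63) and Nrarp (0.53), and 0 were higher, beside the same 18.4% and 8.78%.

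Matrix genes were compared in the same way. Eln (elastin) was 4.64-fold higher in the Rgs5-low cells (2.82 to 7.14), and 7 of 12 genes of elastic and interstitial matrix at 20 CPM or more were higher in 7 of 7 libraries and 0 lower, beside 8.78% and 18.4% of all genes. Of 15 basement membrane genes, 7 were lower in 7 of 7 and 3 higher, beside the same 18.4% and 8.78%. The lower genes included the laminin chains Lama2 (0.21), Lamc3 (0.10), Lamc1 (0.64) and Lamb2 (0.79), while Hspg2 (perlecan, 2.35-fold) and Col18a1 (2.53-fold) were higher. Of 19 laminin receptor and focal adhesion genes, 5 were higher in 7 of 7 libraries and 5 lower, beside the same 8.78% and 18.4%. The lower genes were Itga1 (0.53), Bcam, Dmd, Utrn and Lims1. The integrin genes Itga3 (3.83-fold) and Itga8 (1.99-fold) on this list were higher.

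Some of these genes changed stepwise with Rgs5, within the class too. Smooth muscle cells were split by Rgs5 at 5, 20 and 60 per 10000, so that the lower pair of bins are members. Of the listed genes, 7 of 26 contractile, 1 of 23 calcium and channel and 2 of 12 elastic and interstitial matrix genes fell at each step in 7 of 7 libraries, beside 0.438% of all genes. Without the genes of the contractile sum it was 5 of 22 contractile genes. Those rising at each step in 7 of 7 were 2 calcium and channel genes and 1 each of the vasoactive, Notch, basement membrane and laminin receptor lists, beside 0.956% of all genes. The other genes of these lists did neither in 7 of 7, among them Myh11, at a median of 3993 and 4016 CPM in the bins of members. Median Cnn1 over the libraries went from 492 to 233 CPM within the members and on to 69.7 and 0.0 CPM, falling at each step in 7 of 7 libraries. Eln ran from 230 to 100 CPM within the members and then to 52.3 and 18.3 CPM, and Kcnma1 likewise fell at each step in 7 of 7. Notch3 rose at each step in 7 of 7, from 322 through 417 and 574 to 931 CPM, and so did Ano1 and Lamc3. Casq2 rose at each step in 6 of 7. Because Rgs5 itself defined the bins, these gradients are given without a test.

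**Figure D2:**
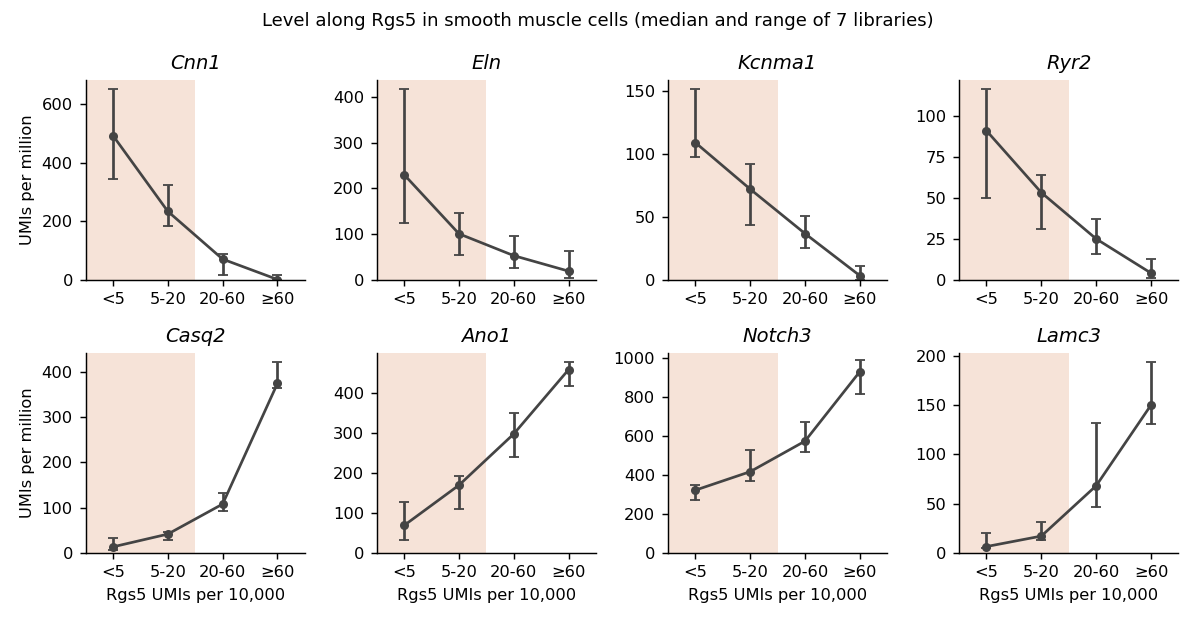
Level (CPM, linear axis) of 8 genes in smooth muscle cells grouped by Rgs5 UMIs per 10000, with points at the median of 7 libraries, bars from the lowest to the highest library and the shaded bins holding the Rgs5-low cells. Cnn1, Eln, Kcnma1 and Ryr2 drop along Rgs5, and Casq2, Ano1, Notch3 and Lamc3 climb.

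Members also differed among themselves. The index of dispersion (variance over mean of the UMIs per cell, after scaling for depth) was 1.20 at the median of 1298 genes with at least 0.5 UMIs per member. At the median of the 7 libraries it was highest for the nuclear noncoding RNA Malat1, at 56.2, and next for Mgp, at 40.8 (matrix Gla protein, an inhibitor of calcification, range 21.5 to 232). It was 18.8 for the early response gene Fos, 14.9 for Gm42418, 14.3 for the metallothionein Mt1, 13.1 for Cebpb and 13.0 for Acta2. At equal relative variation this index rises with the level of a gene, so it does not rank genes by relative variation. Malat1, Gm42418 and Acta2 had median levels of 45956, 25630 and 14923 CPM, and Acta2 is also a gene of the contractile sum. In the Lama5 WT libraries the 11 of 85 and the 9 of 94 cells with the most Mgp held at least 50% of its UMIs.

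The genes targeted in the study were examined next. Lama4 (chr10:38965515-39110188, plus strand) had 54 and 63 UMIs in the members of the WT libraries (35.4 and 35.9 CPM) and 0 in the Lama4-/- library, which allows a level of up to 6.23% of WT. In the Tek-Cre:Lama5-/- members Lama5 (chr2:180176373-180225859, minus strand) was at 142 and 127 CPM against 143 and 172 CPM in WT. The ratio over the pooled UMIs was 0.859 (counting interval 0.688 to 1.07, 161 against 169 UMIs), and the log2 fold change of -0.15 ± 0.17 (SE) did not pass the test (edgeR quasi-likelihood, adjusted p = 0.843). In all other kept cells of these libraries the ratio was 0.695 (0.652 to 0.741).

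Other laminin chains in the members showed no call in the Tek-Cre:Lama5-/- libraries: Lamb2 was at 313 and 299.9 CPM against 271 and 317, and Lamc1 at 109 and 121 against 124 and 112. The Lama4 level in Tek-Cre:Lama5-/- members was 53.8 and 35.7 CPM, beside 29.7 and 37.3 CPM in WT, an interval of the ratio of 0.871 to 2.12. In the Lama4-/- library, Lama5 was at 129 CPM against 180 and 166 CPM, a ratio of 0.749 (0.629 to 0.889). In the Rgs5-high smooth muscle cells the corresponding ratio was 1.29 (1.04 to 1.59), and in all other kept cells 1.18 (1.11 to 1.25). These intervals cover counting error only and rest on 1 knockout library.

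As a share of all kept cells, the Rgs5-low class held 2.97% and 3.54% in the WT libraries of the Lama4 experiment and 3.12% in Lama4-/- (exact Clopper-Pearson 95% interval 2.67 to 3.62). The knockout lay between its WT libraries. In the Lama5 experiment the shares were 0.993% and 1.10% in WT and 1.52% and 1.40% in Tek-Cre:Lama5-/-, so that both knockout libraries were above both WT libraries. The difference was 0.415 percentage points (1.46% ± 0.085 against 1.05% ± 0.077, SD, n = 2 each). An exact two-sided permutation test gave p = 0.3333, the smallest value that 2 against 2 allows.

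Among smooth muscle cells of both Rgs5 classes the Rgs5-low share was above WT in both knockouts. It was 47.3% and 49.2% in WT against 60.7% (54.7 to 66.5) in Lama4-/-, and 21.5% and 22.2% in WT against 30.2% and 26.7% in Tek-Cre:Lama5-/- (difference 6.63 points, exact permutation p = 0.3333). In Lama4-/- the number of Rgs5-low cells was 167 beside 166 and 189 in WT, while that of Rgs5-high smooth muscle cells was 108 beside 185 and 195. In Tek-Cre:Lama5-/- the Rgs5-low numbers were 127 and 120 beside 85 and 94, and the Rgs5-high numbers 294 and 329 beside 311 and 330. The class is cut on Rgs5, so a change in cell numbers and a change in Rgs5 per cell cannot be told apart. Shares in the WT pools of the experiments differed by more than either knockout did from its WT, and experiment and pool cannot be told apart.

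**Figure D3:**
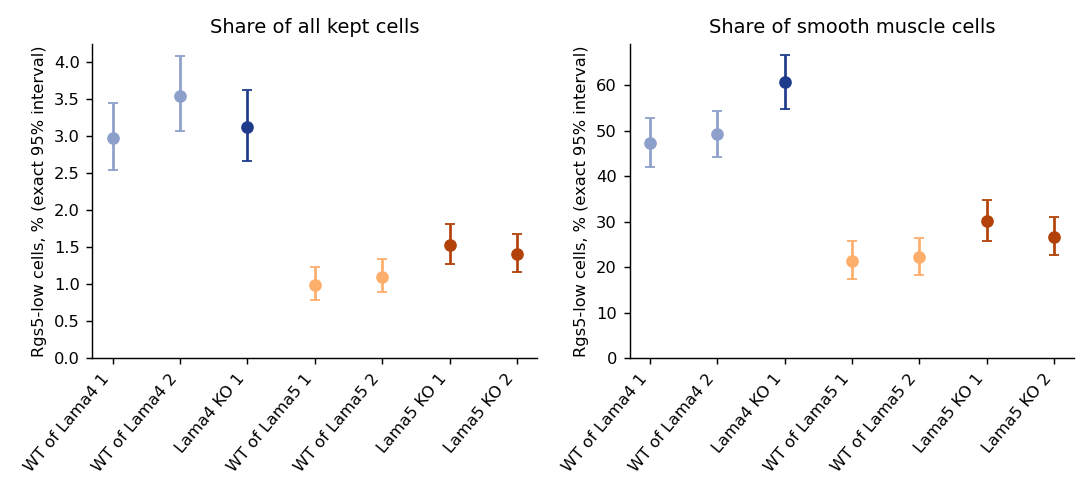
Rgs5-low cells as a percentage of all kept cells (left) and of smooth muscle cells (right) in each of the 7 libraries, with points for the library and bars for the exact 95% interval, which covers counting error only. On the right the Lama4-/- library lies at 60.7% above its WT at 47.3% and 49.2%, and the Tek-Cre:Lama5-/- libraries at 30.2% and 26.7% lie above theirs at 21.5% and 22.2%.

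In the Tek-Cre:Lama5-/- libraries the Rgs5-low cells held less of the early response genes Fos, Btg2 and Klf2, the Notch target Hes1, and the matrix genes Sparc and Ogn. Adamts9, Adamts4, Tnfrsf12a and Hbegf were among the genes that were higher. Summed UMIs per library were compared with edgeR's quasi-likelihood test, and 165 of 6331 genes passed an adjusted p of 0.05 (2.61%), 119 higher (1.88%) and 46 lower (0.727%). Scaled to library totals in place of TMM, 84 were higher and 65 lower. RNA of other cell types moved with the groups. All 7 oligodendrocyte markers listed were called higher, with summed levels of 286 and 1320 CPM in WT and 3890 and 6541 in the knockout. Of 6 astrocyte markers tested, 5 were called lower, with sums of 727 and 932 CPM in WT and 554 and 627 in the knockout.

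The 10 genes furthest in each direction were of that kind. Among the highest were Ttr, a choroid plexus gene, and Tnfaip6, Mal, Mog, Tubb4a, Cldn11, Elavl3, Tmeff2 and Slain1, which peak in oligodendrocytes. The lowest were Sox9, Ptprz1, Aqp4, Mt3, Gja1, Clu, Gpr37l1, Scg3 and Slc1a3, which peak in astrocytes or ependymal cells, and the haemoglobin gene Hba-a1. In all, 93 of the 165 genes had a level at least 10 times higher in another cell class. Without the 41 members that carried markers of fibroblasts, astrocytes, oligodendrocytes or neurons, 82 of 5693 genes were called (1.44%), 60 higher (1.05%) and 22 lower (0.386%). The account below keeps to the 48 genes called both ways and not 10 times higher elsewhere, 36 higher and 12 lower. This restriction was chosen after the values were seen. All 48 kept their direction in each of the alternative fits listed in the closing section, but DESeq2 called 7 of them (Hes1, Fos, Btg2, AY036118, Ifrd1, Lars2 and Gm42418), edgeR without a filter on low counts called 2, members with Rgs5 under 10 gave 11, and the fits without WT replicate 1 or Tek-Cre:Lama5-/- replicate 2 called 17 and 24.

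Immediate early and shear-responsive genes were split. Fos, which encodes a subunit of the AP-1 transcription factor, was at 4708 and 4331 CPM in the WT libraries and at 3050 and 3019 CPM in the knockout. The groups did not overlap, and the log2 fold change was -0.50 ± 0.07 (SE, adjusted p = 4.7e-07). Btg2, an antiproliferative early response gene, was at 1365 and 1384 CPM in WT and 927 and 923 CPM in the knockout. Klf2, a factor induced by flow in endothelium, was at 827 and 659 CPM in WT and 480 and 552 CPM in the knockout. Ier3 went the other way, from 696 and 726 CPM to 908 and 912 CPM. Of the 19 genes on the early response and dissociation list, these 4 passed, 3 lower and 1 higher, with a median log2 fold change of -0.06 against 0.01 over all genes tested.

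Hes1, the transcriptional repressor at the end of the Notch pathway, was at 649 and 711 CPM in WT and 421 and 373 CPM in the knockout. Its log2 fold change was -0.70 ± 0.11. It was the 1 call among 9 Notch genes tested, whose median was 0.06. The receptor Notch3 stood at 447 and 439 CPM in WT and 364 and 378 CPM in the knockout and did not pass (log2 fold change -0.18 ± 0.12). Id2, another helix-loop-helix repressor, was at 167 and 138 CPM in WT and 63.3 and 78.6 CPM in the knockout.

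Few matrix genes were called. Sparc, a collagen-binding protein of the basement membrane, was at 727 and 708 CPM in WT and 475 and 455 CPM in the knockout, and was the 1 call among 14 basement membrane genes. Ogn, the small proteoglycan osteoglycin, is outside the matrix lists and was at 128 and 95.2 CPM in WT and 49.1 and 42.8 CPM in the knockout. Adamts9 and Adamts4, proteases that cleave proteoglycans, are outside them as well and had log2 fold changes of 1.17 ± 0.23 and 0.77 ± 0.16. Mgp, the 1 call among 12 genes of elastic and interstitial matrix, was at 1026 and 1089 CPM in WT and 1399 and 1114 CPM in the knockout. In each of these libraries at most 11 cells held at least 50% of its UMIs, and the lower knockout library was close to WT.

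Other higher genes encode receptors, ligands and regulators. Tnfrsf12a, the receptor for the cytokine TWEAK, was at 128 and 118 CPM in WT and 248 and 218 CPM in the knockout (log2 fold change 1.00 ± 0.16). Hbegf, a ligand of the EGF receptor, was at 223 and 282 CPM in WT and 334 and 405 CPM in the knockout. The ephrin receptor Epha2, the factor Runx1, the cell-cycle inhibitor Cdkn1a, the stress gene Ifrd1 and the kinase Ripk1 were also called higher. Gm42418, a transcript that overlaps ribosomal RNA repeats, was at 26682 and 25630 CPM in WT and 50727 and 52505 CPM in the knockout. It was also higher in all other kept cells, at 31008 and 30465 CPM against 56030 and 60637 CPM, as was Lars2. The part of this library-wide difference in the other calls was not tested.

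**Figure D4:**
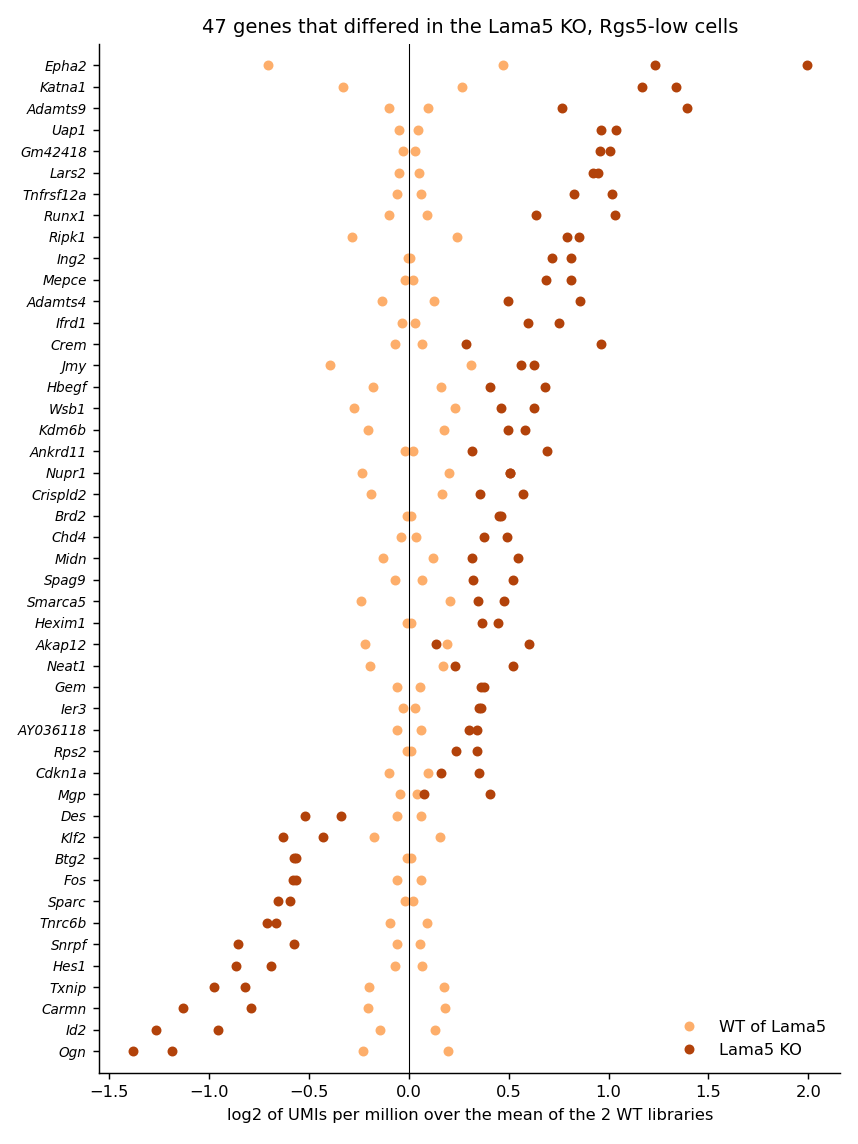
For 47 of the 48 genes, the log2 of the CPM in Rgs5-low cells of a library over the mean of the 2 WT libraries, with pale points for WT and dark points for Tek-Cre:Lama5-/-. The 12 lower genes run from Ogn to Des and the 35 higher from Mgp to Epha2, and for Akap12 the lower knockout library lies inside the WT range.

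Of the contractile genes Des passed, and it was at 907 and 835 CPM in WT and 688 and 607 CPM in the knockout (log2 fold change -0.35 ± 0.10, adjusted p = 0.0424). It was the 1 call among 26 listed genes, of which 22 had a negative estimate, with a median of -0.07. Acta2 was at 14923 and 14069 CPM in WT and 12682 and 11765 CPM in the knockout and did not pass (-0.17 ± 0.06, adjusted p = 0.0892). Tagln was at 10998 and 10073 CPM in WT and 9827 and 9186 CPM in the knockout, with a log2 fold change of -0.08 ± 0.06. Myh11 was at 3847 and 3981 CPM in WT and 3577 and 3542 CPM in the knockout. Carmn, a noncoding RNA of smooth muscle, was called lower, at 119 and 155 CPM in WT and 79.1 and 62.5 CPM in the knockout. Of 18 calcium and channel genes, 15 vasoactive genes, 9 genes of the SRF and YAP list and 19 laminin receptor and adhesion genes tested, 0 passed in edgeR or in DESeq2. At an unadjusted p under 0.05 in edgeR these lists held 2, 0, 0 and 2 genes, beside 727 of all 6331.

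The Rgs5-high smooth muscle cells of the same libraries gave most of the same differences. Of the 48 genes, 38 had knockout libraries apart from WT in the same direction there (79.2%, against 31.9% of all tested genes with the sign they had in the Rgs5-low cells). Tnfrsf12a, Adamts9, Crem, Fos, Hes1 and Klf2 were among them. In all other kept cells 39 of the 48 did so (81.2%, against 46.5%). Ogn had a log2 ratio of 0.05 in the Rgs5-high cells, Id2 0.23 and Epha2 -0.19. A test of the difference between the effects in the 2 classes called 6 of 8722 genes (0.0688%), of which 0 were among the 48. In that test 14 of the 48 had an unadjusted p under 0.05, beside 539 of all 8722. The 48 were chosen for their effect in the Rgs5-low cells, which enters this difference. Their share is therefore not comparable with that of all genes. Ogn had the lowest adjusted p of the 48, at 0.149.

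The Lama4-/- library held less metallothionein message than its WT. Mt1, which binds zinc and copper, was at 2479 and 2128 CPM in WT and 845 CPM in the knockout (exact Poisson interval 797 to 895), and Mt2 at 122 and 58.7 CPM against 15.5 CPM (9.62 to 23.7). With 1 knockout library there is no test. The index of dispersion of Mt1 in the WT libraries and in Lama4-/- was 48.2, 39.6 and 14.3, so its counting interval is too narrow. In astrocytes of these data Mt1 was at 3.31 and Mt2 at 19.8 times the level in the members. The part of such RNA in the difference was not tested. Genes were named when at 50 CPM or more in either group, with an absolute log2 ratio of at least 1 and an interval apart from both WT libraries, which 19 of 3044 genes met (0.624%), 9 higher (0.296%) and 10 lower (0.329%). The other lower genes were Cenpl, Bhlhe41, Elp5, Ncapd3, Gdf15, Rps28 and the haemoglobin genes Hba-a1 and Hbb-bs. The replicate 1 WT library held 1930 CPM of Hbb-bs and the replicate 2 library 50.1 CPM, beside 16.3 CPM in the knockout.

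Most of the higher genes rested on 1 cell. All UMIs of Dcn, Spp1 and Rbp4 in the knockout library came from 1 member, as did 98.8% of those of Apod, 67.6% of Itm2a, 52.3% of Ctgf and 48% of Igfbp2. Without the cell of highest count for each gene in each library, 13 genes met the rule, and of the 9 higher genes Ttr and Enpp2 remained. Ttr was at 113 and 80.9 CPM in WT and 799 CPM in the knockout, with UMIs in 165 of 167 members, and Enpp2 at 11.1 and 11.4 CPM against 57.7 CPM. Both are far more abundant in choroid plexus cells of these libraries, at 1170 and 396 times the level in the members, and the part of such RNA was not tested. Contractile genes gave 0 past the rule, with a median log2 ratio of 0.06 against 0.05 over all genes. Acta2 was at 18128 and 18180 CPM in WT and 20384 CPM in the knockout.

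Genes that differed in Tek-Cre:Lama5-/- were compared with the Lama4-/- library. Of the 48, 41 had a Lama4-/- value at 50 CPM or more. In 14 the Lama4-/- interval lay apart from both WT libraries in the opposite direction and in 3 (Hes1 and Mgp among them) in the same direction, beside 205 of 3044 genes (6.73%) with intervals apart in either direction. These intervals cover counting error only and are too narrow for genes that vary among members. The index of dispersion in the WT libraries and in Lama4-/- was 24.1, 15.9 and 18.8 for Fos and 34.7, 16.2 and 12.1 for Ier3. Fos, at 3868 and 3800 CPM in the WT libraries of that experiment, was at 5638 CPM in Lama4-/-. Crispld2, a secreted glycoprotein and a leading gene of the class, was at 694 and 653 CPM in WT and 349 CPM in Lama4-/-, while Tek-Cre:Lama5-/- had 1225 and 1053 CPM against 926 and 723 CPM. Hes1 was lower in both knockouts. Mgp was called higher in Tek-Cre:Lama5-/-, where 1 library was close to WT, and was at 1236 and 996 CPM in WT and 1664 CPM in Lama4-/-. Its index of dispersion in these WT libraries and in Lama4-/- was 232, 50.5 and 141, so its counting interval is far too narrow. The knockouts have separate WT pools, and the difference between their effects was not tested.

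**Figure D5:**
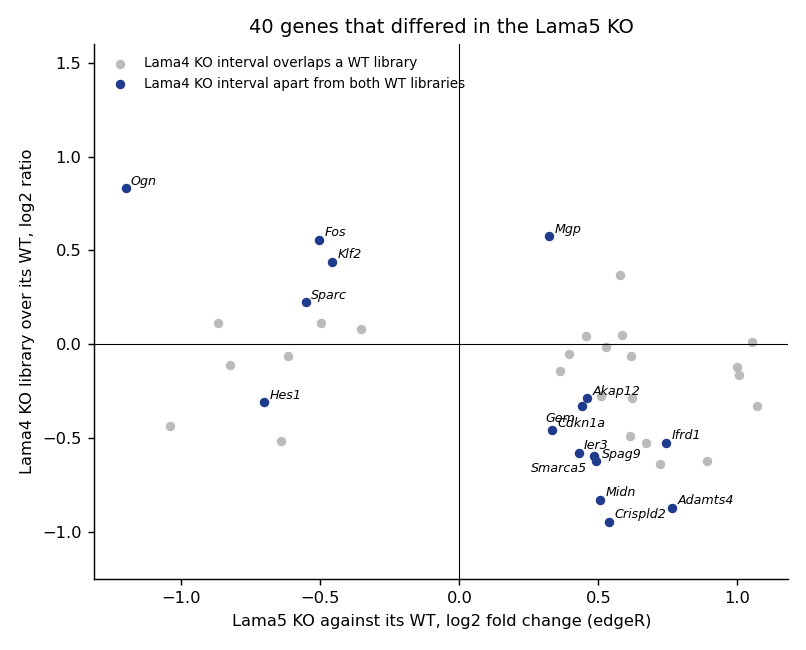
Log2 fold change in Tek-Cre:Lama5-/- (horizontal, edgeR) against the log2 ratio of the Lama4-/- library to its WT (vertical) for 40 of the 41 genes, with dark points where the Lama4-/- counting interval was apart from both WT libraries. Of the 16 dark points, 14 lie in the quadrants of opposite direction.

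The WT pools set the scale for these differences. Between the WT pools of the Lama5 and the Lama4 experiment, 689 of 8000 genes were called in the Rgs5-low cells (8.61%), 350 higher (4.38%) and 339 lower (4.24%) in the former. Of 26 contractile genes, 14 were lower and 1 higher in the Lama5 experiment's WT, with a median log2 fold change of -0.30. Eln was at 216 and 218 CPM in the WT of the Lama4 experiment and 109 and 110.2 CPM in that of the Lama5 experiment, and Cnn1 at 509 and 404 against 312 and 267 CPM. Of 19 early response genes, 11 were lower and 5 higher, with Btg2 at 3702 and 4063 against 1365 and 1384 CPM. Of the 48 genes called in Tek-Cre:Lama5-/-, 13 (27.1%) differed at least as much between the WT pools as between genotypes, against 56.2% of all genes tested. The 48 were chosen for their difference between genotypes, so a share below that of all genes follows from the choice.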

How the data were processed

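The deposited matrices hold unnormalised UMI counts for each gene in each barcode, made by the authors with Cell Ranger 3.1.0, per the file headers, on mm10, per the submitters' processing notes, which also name Seurat 3.1. The annotation they counted on is not given in the sources used here. Libraries came from the Chromium 3-prime kit after papain and Liberase digestion and removal of myelin, per the labels' protocols. Gene positions are from GENCODE M21 on GRCm38, in which 31011 of 31053 gene IDs (99.86%) were found, and promoter windows from RefSeq. Cells and classes were cut at the values given above. No doublet caller was run. An alternative left out members with at least 20 UMIs per 10000 of markers of fibroblasts, astrocytes, oligodendrocytes or neurons. Markers of pericytes and of the other classes did not count there.

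UMIs were summed over the members of each library, since cells are not replicates. The sums were compared with edgeR 4.0.16 (filterByExpr, TMM, quasi-likelihood test, Benjamini-Hochberg over all genes tested), with the standard error taken as the log2 fold change over the root of F. On simulated counts with known changes this recovered 59 of 100 2-fold and 9 of 100 1.5-fold changes in the Lama5 comparison (6322 genes), and the test of the difference between classes 14 and 1 of 100 (8620 genes). Log2 ratios of the Lama4-/- library used 0.5 UMIs as pseudocount. Exact intervals at 95% cover counting error only. A level was called at least 10 times higher elsewhere from sums over cells with 40 or more marker UMIs per 10000 in all 7 libraries. The members, gene lists and tests were chosen with earlier results of these data known. Named genes are those on the lists, the 10 furthest in each direction among the calls, and the 20 leading the class by ratio. Scripts ran in Python 3.11.15 (numpy, scipy, pandas) and R 4.3.3, with DESeq2 1.42.0 as an alternative. Results of 3 named genes are not reported here, and the plots leave them out.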

Additional observations from a re-analysis of the deposited data

Results flagged for a closer look

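Of the genes called in Tek-Cre:Lama5-/- and kept for the account, 41 were compared with the Lama4-/- library. In 13 of these 41 the Rgs5-low cells of both Tek-Cre:Lama5-/- libraries lay on one side of both of their WT libraries. For these 13 the Lama4-/- library, by its counting interval, lay on the other side of its own WT. The 41 were chosen for their Tek-Cre:Lama5-/- effect, so 13 is not a count over all genes. Among all 3044 genes at 50 CPM or more, 205 (6.73%) had a Lama4-/- interval apart from both WT libraries in either direction. The difference between the knockouts was not tested, since Lama4-/- has 1 distinct library. The counting interval also leaves out variation among members. For Fos, Klf2, Ier3, Adamts4 and Crispld2 this variation was well above counting error in that experiment. For 4 genes the direction was lower in Tek-Cre:Lama5-/- and higher in Lama4-/-. The log2 fold change of Ogn was -1.20 in Tek-Cre:Lama5-/- beside a log2 ratio of 0.83 in Lama4-/-. Sparc stood at -0.55 beside 0.22, Fos at -0.50 beside 0.56, and Klf2 at -0.46 beside 0.44. For the other 9 the direction was higher in Tek-Cre:Lama5-/- and lower in Lama4-/-. Adamts4 had 0.77 beside -0.87, Ifrd1 0.74 beside -0.53, Crispld2 0.54 beside -0.95, and Midn 0.51 beside -0.83. Spag9 had 0.49 beside -0.62, Smarca5 0.48 beside -0.60, Gem 0.44 beside -0.33, Ier3 0.43 beside -0.58, and Cdkn1a 0.33 beside -0.46.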

How the results depend on the processing

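Beside the 165 genes called in Tek-Cre:Lama5-/-, the total of calls was 16 in DESeq2 and 3 in edgeR without a filter on low counts. It was 48 with a contractile sum of at least 80, 48 with Rgs5 under 10 and 80 with Rgs5 under 40. Cells without markers of fibroblasts, astrocytes, oligodendrocytes or neurons gave 82, of which 52 were among the 165. The genes kept for the account were 48. Leaving out 1 library gave 61 to 221, with 61 without WT replicate 1 and 90 without Tek-Cre:Lama5-/- replicate 2. With the replicate number as a block 222 were called. Deviations of same-numbered libraries from their group means had a correlation of 0.066 over genes. Counting noise lowers such a value, so it cannot decide whether the numbers pair the libraries. Between the WT pools, where the correlation was 0.015 and the block fit gave 878, the 689 calls became 237 in DESeq2, 413 with Rgs5 under 10 and 1224 with Rgs5 under 40, and 318 to 653 without 1 library, 318 being without replicate 1 of the Lama4 experiment's WT. The 19 genes past the rule in Lama4-/- became 24 and 32 without WT replicate 1 or 2, and 17 of the 19 were shared each time. The difference in share of kept cells kept its sign in the Lama5 experiment (0.355 to 0.475 points without 1 library) and went from -0.426 to 0.151 points in the Lama4 experiment, where as a share of mural cells it was 6.24 points. The estimates of 3 genes turned sign: Hba-a1 was 0.61 and Lama5 0.087 with Rgs5 under 40, and Tagln ran from -0.14 to 0.0033 without 1 library, the latter without WT replicate 1. Fewer genes or cells entered some of these fits. Otherwise the cause was not tested.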

Other observations

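Among the 6 genes whose Tek-Cre:Lama5-/- effect differed between Rgs5-low and Rgs5-high smooth muscle cells, Mal, Tubb4a, Mog and Tmeff2 are genes of oligodendrocytes. The others were Hspa1b, an inducible heat shock protein, with a log2 difference of 1.18 ± 0.16 (SE, edgeR adjusted p = 0.0372), and Mt1 at -0.97 ± 0.15. Each value is the knockout effect in the Rgs5-low cells minus that in the Rgs5-high cells, and not a difference in level. In the Rgs5-low cells alone Mt1 did not pass (log2 fold change 0.19 ± 0.09). These genes were named after their values were seen.

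Of the 36 genes higher in Tek-Cre:Lama5-/-, 24 had a promoter window, and the AP-1 motif TGANTCA, searched as written, which covers both strands, was in 0 of them, against 2425 of 27025 genes (8.97%). The CArG box was in 1 of the 24 (Ing2). No match says only that these letters are not in the window.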
